A study of Mus musculus with 7 samples.

Results

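The genes described here serve the folding, quality control and export of secreted proteins in the endoplasmic reticulum (ER), together with 4 genes of antibody secretion. They are 42 named genes, each read from probe sets annotated to that gene alone; where there were several, the brightest over the 7 arrays stands for the gene. All 42 were found among the 18193 genes that such probe sets name. Expression was measured on 1 array per mouse in B cells from the spleen, 4 wild-type (WT) mice of the FVB strain and 3 Eu-miR-155 transgenic (TG) mice, also described as FVB. A magnetic kit was used to isolate the B cells. No age, tumour stage or treatment is given, and the labels do not say whether the TG mice come from 1 founder. The Eu enhancer, taken from the antibody heavy chain locus, directs the transgene to the B lineage. Values are on a log2 scale as the authors deposited them. The floor of the data is 2.17, and 4 was taken as the upper limit of background. Levels of different probe sets are not comparable with each other, so each gene is compared only with itself.

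The ER takes up newly made secreted and membrane proteins through the translocon, cleaves their signal peptides, folds them with chaperones, joins their cysteines with disulfide isomerases, and passes them to the Golgi in COPII vesicles. Proteins that fail to fold are pulled back and degraded. When folding demand rises, the sensors IRE1 (Ern1), PERK (Eif2ak3) and ATF6 start the unfolded protein response, and XBP1 and ATF6 raise the genes of folding and degradation. Resting B cells secrete little, and plasma cells expand this machinery to release antibody. Other cells that load granules with secreted proteins, such as neutrophil precursors, use it as well.

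The transgene carries miR-155, and its mature RNA is shown because it is what separates the groups. RefSeq places it at chr16:84714143-84714165 of GRCm38.p6, plus strand, and capitals mark the seed, bases 2 to 8.
mmu-miR-155-5p: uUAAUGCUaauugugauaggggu

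Several of these genes share a promoter element of the ER stress response. The genes were chosen by roles that include this response, so the element's share is not independent of the choice. The ER stress response element (ERSE), to which NF-Y and ATF6 are known to bind, consists of CCAAT, 9 bases of any kind, and CCACG. It was searched on both strands in the 250 bases before each RefSeq start (GRCm38.p6). Promoters were found for 35 of the 42 genes, and 9 of the 35 (25.7%) held the element, against 0.13% of the 27025 genes in the table. The 10 elements are shown with 10 flanking bases on either side, read from CCAAT to CCACG, with the fixed letters in capitals.
Hspa5, chr2:34772015-34772053, plus strand: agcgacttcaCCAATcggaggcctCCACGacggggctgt
Hsp90b1, chr10:86705523-86705561, plus strand: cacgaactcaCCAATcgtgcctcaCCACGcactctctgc
Hsp90b1, chr10:86705628-86705666, minus strand: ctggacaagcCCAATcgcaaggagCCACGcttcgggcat
Calr, chr8:84847065-84847103, plus strand: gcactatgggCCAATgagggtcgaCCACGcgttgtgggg
Canx, chr11:50325790-50325828, minus strand: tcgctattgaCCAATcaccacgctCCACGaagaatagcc
Creld2, chr15:88819510-88819548, minus strand: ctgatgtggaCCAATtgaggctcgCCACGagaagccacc
Dnajc3, chr14:118937817-118937855, plus strand: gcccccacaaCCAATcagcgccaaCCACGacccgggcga
Pdia6, chr12:17266481-17266519, plus strand: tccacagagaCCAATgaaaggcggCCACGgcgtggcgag
Derl3, chr10:75893232-75893270, minus strand: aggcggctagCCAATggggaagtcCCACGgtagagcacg
Syvn1, chr19:6046522-6046560, plus strand: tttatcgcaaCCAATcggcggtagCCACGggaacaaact

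With 1 of the 10 fixed letters allowed to differ, 16 of the 35 promoters held a match (45.7%), against 1.51% of all genes. Pdia4 is such a case and is shown because it had the smallest p of all the genes described here.
Pdia4, chr6:47813592-47813630, plus strand: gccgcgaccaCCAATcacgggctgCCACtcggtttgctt
The related ERSE-II, which is ATTGG, 1 base of any kind, and CCACG, was in the promoter of Herpud1 alone, against 0.037% of all genes.
Herpud1, chr8:94386367-94386397, plus strand: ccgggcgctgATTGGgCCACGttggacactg
The XBP1 and ATF6 core element TGACGTGG was found before a start of Sec24d and Txndc5 (0.603% of all genes hold it), and the cAMP response element TGACGTCA before Ell2 (1.77%). These motifs share letters, since TGACGTGG holds CCACG when read on the other strand. A match is a description of the letters and not of binding.

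**Figure D1:**
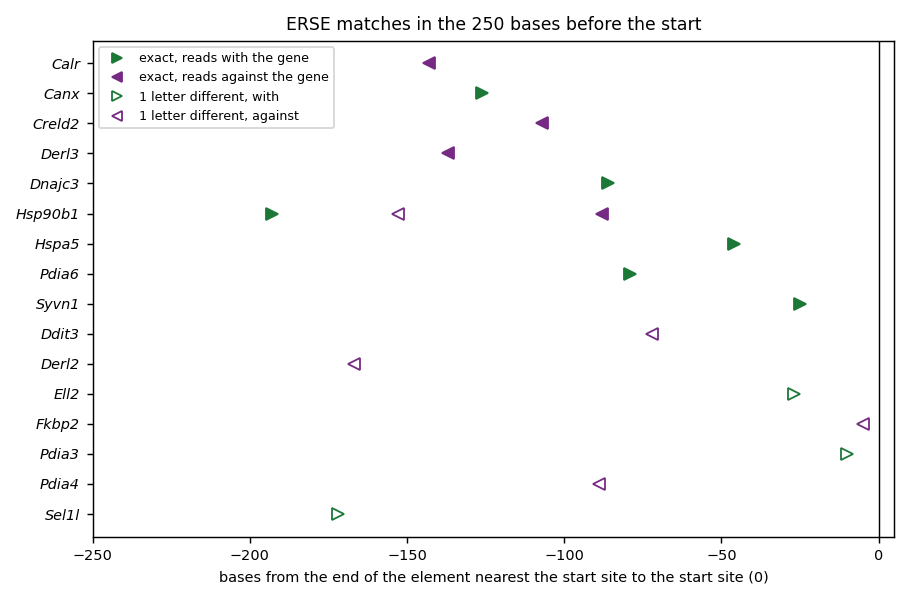
Position of each ERSE match before the start site, in bases (x axis), for the 16 genes with an exact match or a match with 1 letter different. Filled triangles are exact, open ones differ by 1 letter, and the direction of the triangle gives the strand relative to the gene; the exact matches end between 25 and 193 bases before the start.

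Part of these genes rose in the TG B cells, most of them by small amounts, and 0 passed as lower. Of 42 genes, 41 were tested, all of them above background on every array; Sec24d was too dim to test. By limma, 10 of the 41 rose at a Benjamini-Hochberg adjusted p under 0.05, against 8.11% of all 9517 genes tested, and 0 fell, against 2.56%. The 10, with Entrez gene identifiers, were Jchain (16069), Ell2 (192657), Sdf2l1 (64136), Manf (74840), Dnajc3 (100037258), Pdia4 (12304), Pdia6 (71853), P4hb (18453), Sec61a1 (53421) and Sec61b (66212). The fitted changes of these 10 ran from 0.37 to 1.91 on the log2 scale. The change was positive for 37 of the 41, with a median of 0.38, where the median over all genes tested was 0.00. At an unadjusted p under 0.05, 29 were higher (20.0% of all genes) and 1 was lower (11.0% of all genes). At an adjusted p under 0.10, 24 were higher, against 14.0% of all genes. In bulk RNA, more cells of a type and more RNA per cell cannot be told apart.

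The groups separated more often than the calls show. For 27 of the 41 genes every TG array lay above every WT array, against 19.5% of all genes, and 17 of these 27 did not pass the test. No gene had every TG array below every WT array, against 10.4% of all genes. Each TG array alone exceeded all 4 WT arrays for 32, 33 and 32 genes (replicates 1, 2 and 3). The share of all genes was not counted for single arrays. The median distance from the WT mean was 0.25, 0.33 and 0.57 on TG replicates 1, 2 and 3, and between -0.05 and 0.02 on the WT arrays. TG replicate 3 was the highest TG array for 31 of the 41 genes, and for 35.0% of all genes tested.

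The calls depended on single arrays. Without WT replicate 1, 2, 3 or 4 the count of genes that rose was 1, 0, 2 and 3, while 3.49%, 1.13%, 2.39% and 2.48% of all genes passed as higher in the same fits. Without TG replicate 1, 2 or 3 the count was 13, 0 and 11, with 8.44%, 0.84% and 6.81% of all genes. Without both TG replicate 3 and WT replicate 4 it was 3, with 3.60% of all genes. The direction of each of the 41 changes was the same under all 20 alternatives that refit them, and the median ran from 0.28 to 0.45. Alternatives that changed only the filter, the floor or the variance model could not move these changes, so their direction was fixed in advance. For the 27 genes whose groups did not overlap, leaving out arrays could not reverse the direction either. Sex is not given in the labels: the X-inactivation transcript Xist was at 2.22 and 2.81 on WT replicates 3 and 4 and between 13.61 and 13.93 on the other 5 arrays. Those same WT replicates held Eif2s3y, a gene of the Y chromosome, at 9.85 and 11.10, and the other 5 arrays had it at 2.17. All 3 TG arrays thus had the female pattern, and genotype and sex are partly confounded. With Xist as a covariate 1 gene passed, Jchain, and 1.44% of all genes passed as higher. Against WT replicates 1 and 2 alone 0 genes passed, with 0.12% of all genes, and the median change was 0.33.

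**Figure D2:**
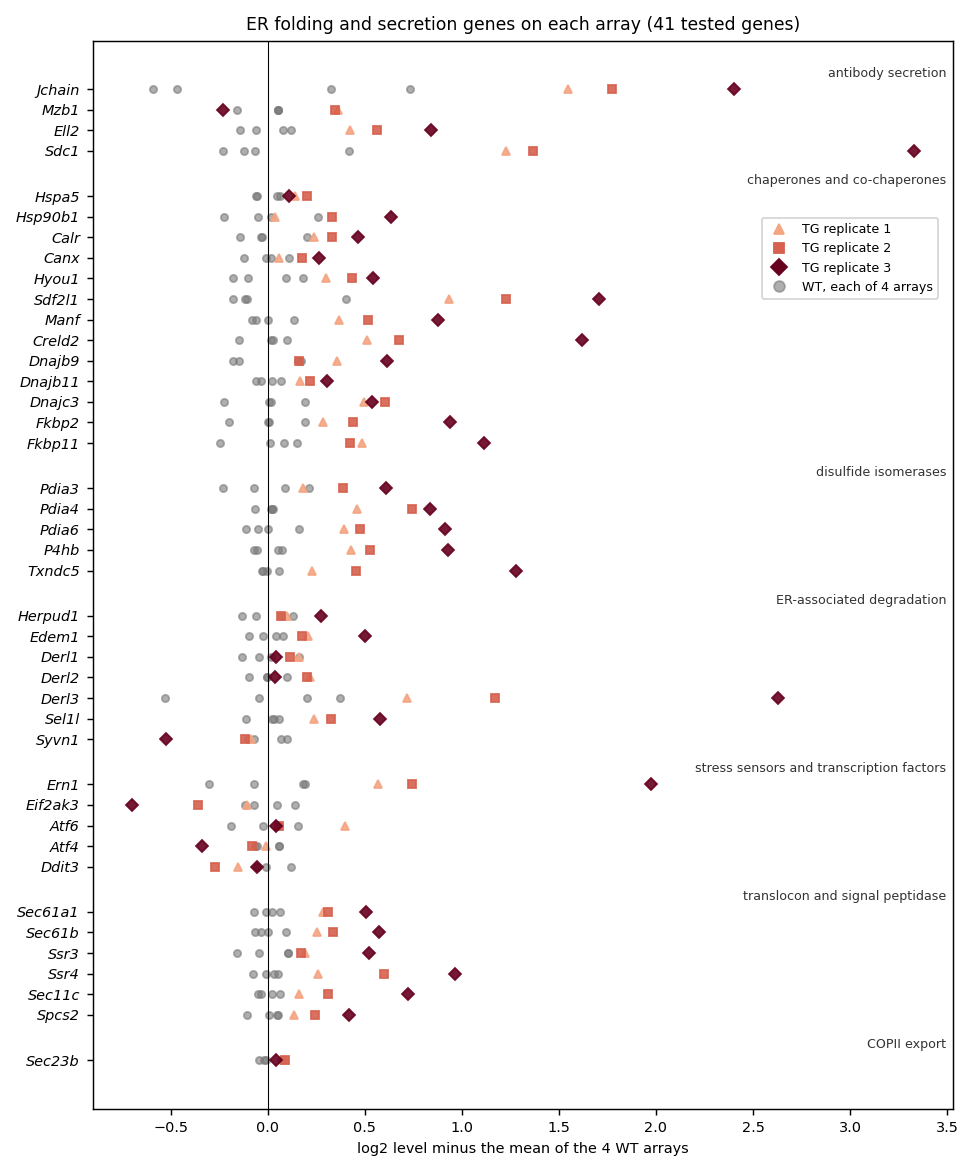
Log2 level on each array minus the mean of the 4 WT arrays (x axis) for the 41 tested genes, grouped by role (y axis); grey circles are the WT arrays and coloured symbols the 3 TG arrays. For 27 of the genes all 3 TG symbols lie to the right of every grey circle, and TG replicate 3 is the TG array farthest right for 31.

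The antibody secretion genes differed widely among themselves. Of 4 genes, 2 rose, against 8.11% of all genes tested, and 2 did not pass. Jchain encodes the chain that joins antibodies into polymers. Jchain stood at 11.85, 11.72, 12.64 and 13.05 on WT replicates 1 to 4 and at 13.86, 14.09 and 14.72 on TG replicates 1 to 3. All TG values lay above all WT values, and the WT replicates with little Xist, 3 and 4, were above the other WT arrays by 1.06. The change was 1.91 ± 0.38 (SE, limma adjusted p = 0.0323), a 3.75-fold rise. With Xist as a covariate it was 2.43 (adjusted p = 0.0393).

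Ell2, an elongation factor that favours the secreted form of heavy chain mRNA, was at 10.05, 10.23, 9.97 and 10.19 in WT and at 10.54, 10.68 and 10.95 in TG. The groups did not overlap, and the change was 0.61 ± 0.11 (SE, limma adjusted p = 0.0295). Sdc1, which encodes the plasma cell surface protein CD138, was at 5.81, 5.70, 5.86 and 6.35 in WT and at 7.16, 7.30 and 9.26 in TG. Its fitted change was the largest of the 41, 1.97 ± 0.52 (SE), and it did not pass (limma adjusted p = 0.0612). TG replicate 3 stood far above the other TG arrays; without it the change of Sdc1 was 1.30 and passed (adjusted p = 0.0239). Mzb1, an ER cochaperone of antibody assembly that marginal zone B cells also express, was at 13.22, 13.01, 13.22 and 13.22 in WT and at 13.53, 13.51 and 12.94 in TG. TG replicate 3 was thus the lowest array for Mzb1, and the change was 0.16 ± 0.15 (SE, limma adjusted p = 0.506). Without TG replicate 3 it was 0.35 and passed (adjusted p = 0.0466).

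Among chaperones and their partners 3 of 13 rose, against 8.11% of all genes, and all 13 fitted changes were positive, from 0.15 to 1.29. The other 10 did not pass, 7 of them with an adjusted p between 0.05 and 0.10. For 10 of the 13 every TG array lay above every WT array, against 19.5% of all genes. Sdf2l1, a partner of the ER DnaJ proteins, was at 8.24, 8.75, 8.17 and 8.24 in WT and at 9.29, 9.58 and 10.06 in TG. The lowest TG array was above the highest WT array, WT replicate 2, and the change was 1.29 ± 0.22 (SE, limma adjusted p = 0.0240), a 2.44-fold rise. Manf, an ER-resident factor induced by stress, was at 11.22, 11.41, 11.20 and 11.28 in WT and at 11.64, 11.79 and 12.15 in TG. It rose by 0.59 ± 0.12 (SE, limma adjusted p = 0.0377).

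Dnajc3 encodes p58IPK, a DnaJ cochaperone that also restrains PERK. It was at 9.62, 9.63, 9.39 and 9.81 in WT and at 10.11, 10.22 and 10.15 in TG. The TG arrays lay close together, with TG replicate 2 the highest, and the change was 0.55 ± 0.10 (SE, limma adjusted p = 0.0271). Dnajc3 had 4 other tested probe sets, which were higher by 0.23 to 0.76, and 1 of them passed (0.51, adjusted p = 0.0256).

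By its brightest probe set the central chaperone had the smallest difference of the 13. Hspa5, which encodes BiP, the ER Hsp70 that holds unfolded chains and the stress sensors, was at 13.77, 13.87, 13.89 and 13.77 in WT and at 13.97, 14.02 and 13.93 in TG. The groups did not overlap, but the change was 0.15 ± 0.05 (SE, limma adjusted p = 0.0932), a ratio of 1.11. Dimmer probe sets of Hspa5 were 0.26 and 0.11 higher (limma adjusted p = 0.159 and 0.608). Hsp90b1, the ER Hsp90 (GRP94), was 0.33 higher with overlapping groups (limma adjusted p = 0.222). The lectin chaperones of glycoproteins, Calr and Canx, were 0.35 and 0.17 higher (limma adjusted p = 0.0653 and 0.180). The nucleotide exchange factor Hyou1 was 0.43 higher and Dnajb11, a DnaJ partner of BiP, 0.23 higher (limma adjusted p = 0.0579 and 0.0560), and Dnajb9, another, 0.38 higher (0.134). Dimmer probe sets of Hyou1 were only 0.16 and 0.14 higher (limma adjusted p = 0.408 and 0.498). Creld2, a stress-induced ER protein, was 0.93 higher (limma adjusted p = 0.0699). On TG replicate 3 Creld2 was at 11.53, against 10.43 and 10.59 on TG replicates 1 and 2 and 9.77 to 10.01 in WT, and without that array its change of 0.59 passed (adjusted p = 0.0228). The prolyl isomerases Fkbp2 and Fkbp11 were 0.55 and 0.67 higher (limma adjusted p = 0.0884 and 0.0739).

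Of the disulfide isomerases 3 of 5 rose, against 8.11% of all genes, and all 5 fitted changes lay between 0.39 and 0.68. Pdia4 (ERp72) was at 10.21, 10.22, 10.13 and 10.22 in WT and at 10.66, 10.94 and 11.03 in TG. The WT arrays lay close together, every TG array was above them, and the rise of 0.68 ± 0.09 (SE, limma adjusted p = 0.0163) had the smallest p of the 41 genes. P4hb, which encodes protein disulfide isomerase itself, was at 11.14, 11.01, 11.00 and 11.12 in WT and at 11.49, 11.60 and 11.99 in TG, a rise of 0.63 ± 0.12 (SE, limma adjusted p = 0.0315).

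Pdia6 (P5) was at 9.97, 10.24, 10.03 and 10.09 in WT and at 10.48, 10.56 and 11.00 in TG. It rose by 0.59 ± 0.14 (SE, limma adjusted p = 0.0461), while its second, dimmer probe set changed by -0.51 (adjusted p = 0.181), so its probe sets disagree. With the mean of both probe sets the change of Pdia6 was 0.04 (adjusted p = 0.827). Pdia3 (ERp57), which works on glycoproteins with calnexin and calreticulin, was at 12.70, 12.82, 12.38 and 12.54 in WT and at 12.79, 13.00 and 13.22 in TG. These groups overlapped, and the change was 0.39 ± 0.14 (SE, limma adjusted p = 0.117). Txndc5 was 0.65 higher and did not pass (limma adjusted p = 0.125); it was at 12.18 on TG replicate 3 and at 11.13 and 11.35 on TG replicates 1 and 2, and without replicate 3 its change was 0.34.

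Of 7 genes of ER-associated degradation, 0 passed by limma in either direction, where 8.11% of all genes rose and 2.56% fell. A count of 0 among 7 is near those shares. At an unadjusted p under 0.05, 3 were higher (20.0% of all genes) and 0 lower (11.0%). For 3 of the 7 every TG array lay above every WT array, against 19.5% of all genes. Their median change was 0.15. Derl3, a derlin of the retrotranslocation channel that secretory cells favour, was at 7.46, 7.28, 6.55 and 7.04 in WT and at 7.80, 8.25 and 9.71 in TG. The groups did not overlap, the TG arrays were spread widely, and the change was 1.50 ± 0.47 (SE, limma adjusted p = 0.0921); without TG replicate 3 it was 0.94 (adjusted p = 0.105). The more widely expressed Derl1 and Derl2 were 0.11 and 0.15 higher with overlapping groups (limma adjusted p = 0.374 and 0.195), and another probe set of Derl1 rose by 0.43 (adjusted p = 0.0104).

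Sel1l, the adaptor of the HRD1 ubiquitin ligase, was 0.38 higher (limma adjusted p = 0.0526), the nearest to the threshold among the genes that did not pass. Its ligase partner Syvn1, which encodes HRD1, was at 12.26, 12.29, 12.46 and 12.43 in WT and at 12.28, 12.25 and 11.84 in TG. The groups overlapped and the change was -0.24 ± 0.12 (SE, limma adjusted p = 0.222). Edem1, which delivers misfolded glycoproteins, was 0.29 higher, and Herpud1, which recruits the ligase complex, 0.15 higher (limma adjusted p = 0.0906 and 0.281). A dimmer probe set of Edem1 was 1.05 higher (limma adjusted p = 0.0721). The other probe sets of Sel1l were higher by 0.32 to 1.01, and none of them passed.

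The stress sensors and their transcription factors moved both ways and 0 of 5 passed by limma, where 8.11% of all genes rose and 2.56% fell. A count of 0 among 5 is near those shares. At an unadjusted p under 0.05, 1 was higher (20.0% of all genes) and 1 lower (11.0%). Ern1, which encodes the sensor IRE1 that splices Xbp1 mRNA, was at 6.72, 6.49, 6.97 and 6.98 in WT and at 7.36, 7.53 and 8.76 in TG. All TG arrays were above all WT arrays, with TG replicate 3 far above the others, and the change was 1.09 ± 0.35 (SE, limma adjusted p = 0.0960); without TG replicate 3 it was 0.66. Eif2ak3, which encodes the sensor PERK, was at 11.37, 11.20, 11.25 and 11.46 in WT and at 11.21, 10.97 and 10.62 in TG. Its groups overlapped at TG replicate 1, and the change was -0.39 ± 0.14 (SE, limma adjusted p = 0.132).

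The factors downstream of PERK were slightly lower, and neither passed. Atf4, which translates stress into amino acid and redox genes, changed by -0.14 ± 0.09, and Ddit3, which encodes the death-associated factor CHOP, by -0.16 ± 0.08 (SE, limma adjusted p = 0.307 and 0.216). Ddit3 was at 8.48, 8.52, 8.65 and 8.47 in WT and at 8.38, 8.26 and 8.47 in TG. TG replicate 3 was at the level of WT replicate 4. Atf6, the membrane-bound factor that is cleaved on stress, was 0.17 higher with overlapping groups (limma adjusted p = 0.372). The difference between these genes and the folding genes was not tested.

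Every gene of the translocon and signal peptidase, 6 of 6, had all TG arrays above all WT arrays, against 19.5% of all genes. The fitted changes were 0.27 to 0.61, and 2 of the 6 genes rose, against 8.11% of all genes. Sec61a1, the channel subunit through which chains enter the ER, was at 12.21, 12.11, 12.18 and 12.25 in WT and at 12.47, 12.50 and 12.69 in TG. The change was 0.37 ± 0.07 (SE, limma adjusted p = 0.0269). Its 5 other probe sets did not pass; 4 were higher by 0.32 to 0.37 and 1 changed by -0.19. Sec61b, a small subunit of the same channel, was at 12.39, 12.30, 12.23 and 12.26 in WT and at 12.55, 12.63 and 12.87 in TG, a rise of 0.39 ± 0.08 (SE, limma adjusted p = 0.0390).

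The translocon-associated subunit Ssr4 had the largest change of this role, 0.61 ± 0.15 (SE, limma adjusted p = 0.0564), and did not pass. Ssr4 was at 11.43, 11.36, 11.30 and 11.41 in WT and at 11.64, 11.98 and 12.34 in TG, so the TG arrays were spread. A second probe set of Ssr4 changed by -0.02 (adjusted p = 0.861). Its partner Ssr3 was 0.30 higher (limma adjusted p = 0.132), while another probe set of Ssr3 rose by 0.46 (adjusted p = 0.0367). The signal peptidase subunits Sec11c and Spcs2 were 0.40 and 0.27 higher (limma adjusted p = 0.10 and 0.0805). Spcs2 was at 11.98, 12.03, 11.87 and 12.02 in WT and at 12.11, 12.22 and 12.40 in TG.

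The COPII coat genes, which bud vesicles from the ER, gave little. Sec23b was at 10.62, 10.61, 10.70 and 10.59 in WT and at 10.72, 10.72 and 10.68 in TG. The groups overlapped at TG replicate 3, and the change was 0.07 ± 0.05 (SE, limma adjusted p = 0.306). Sec24d, a cargo adaptor of the coat, was at 3.06, 3.09, 2.51 and 2.97 in WT, at 3.09 on TG replicate 1, and at 4.55 and 5.82 on TG replicates 2 and 3. It was above background on 2 arrays, both TG, and was not tested.

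**Figure D3:**
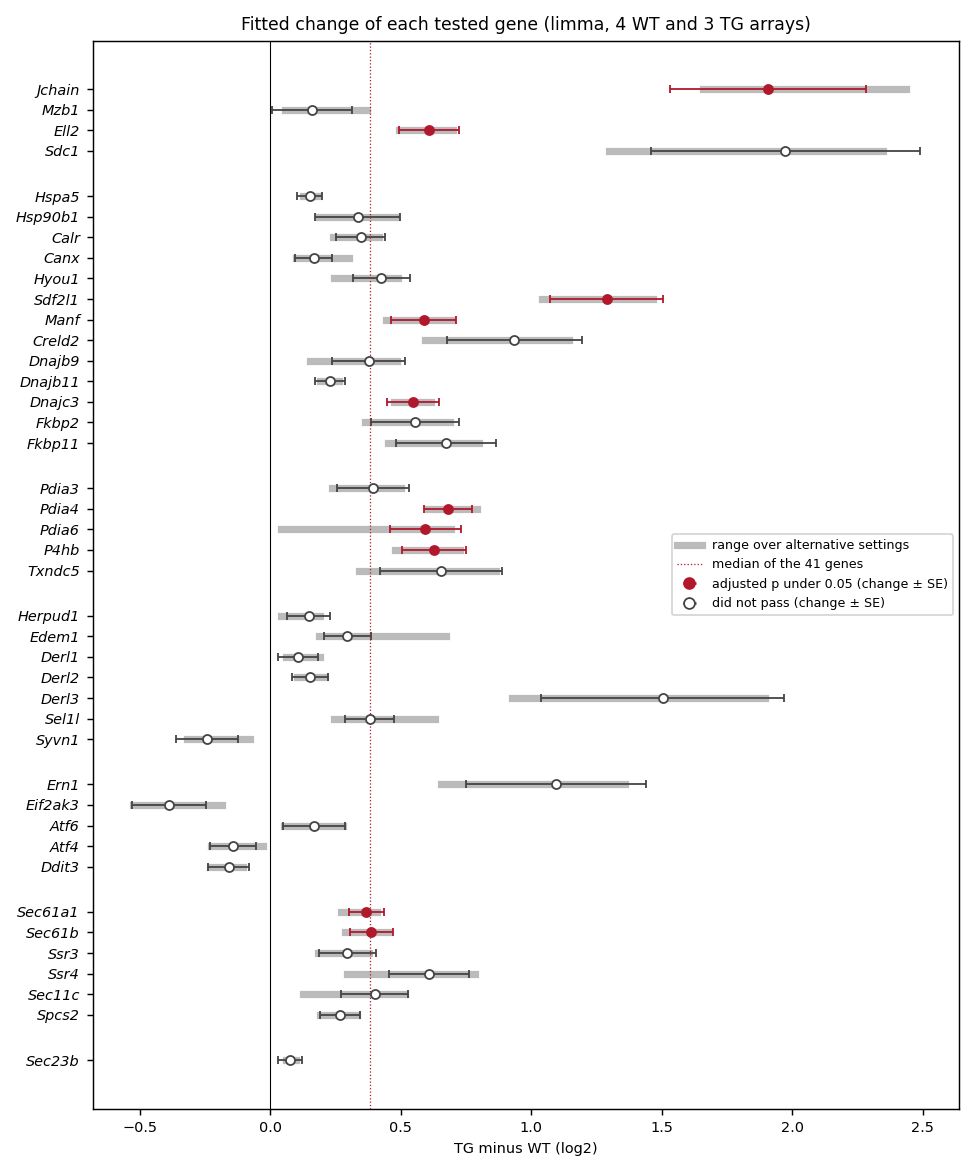
Fitted change of each tested gene, TG minus WT on the log2 scale (x axis), as circles with the standard error from limma; red circles passed at an adjusted p under 0.05, and grey bars give the range over 20 alternative settings. The 10 genes that passed lie between 0.37 and 1.91, and no grey bar crosses 0. Settings that changed only the filter, the floor or the variance model could not move a change. Leaving out arrays could not reverse the 27 genes whose groups did not overlap.

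Most other probe sets had the same sign. Among the 41 genes, 25 had a further tested probe set, 43 in all, and 39 of the 43 had the sign of the brightest one. The 4 others belong to Pdia6, Sec61a1, Ssr4 and Sec11c, the last at -0.15 (adjusted p = 0.346). Of the 43, 3 passed as higher, those of Dnajc3, Derl1 and Ssr3, and 0 passed as lower.

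Genes with and without the promoter element were set side by side. Of the 9 tested genes with an exact ERSE, 2 rose (Dnajc3 and Pdia6) and 8 had a positive change, with a median of 0.35. Of the 25 tested genes with a promoter but no exact match, 6 rose and 22 had a positive change, with a median of 0.39. With 1 letter allowed to differ the medians were 0.39 for 16 genes and 0.38 for 18. Of all genes tested, 8.11% rose. These are descriptions, and no test of the difference was made.

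A wider list of 90 other ER genes, none of them among the 42, had a smaller median change. Of 80 tested, 15 rose and 1 fell, the median was 0.19, and 63 changes were positive. For rises this is 15 of 80 against 8.11% of all genes tested, and for falls 1 of 80 against 2.56%. For 41 of the 80 every TG array was above every WT array, against 19.5% of all genes. For 3 every TG array was below every WT array, against 10.4%. Without WT replicate 2 or TG replicate 2 none of the 80 passed; without WT replicate 1, 3 or 4 the rises were 4, 3 and 4, in fits where 3.49%, 2.39% and 2.48% of all genes rose. The 1 fall was lost whenever any array was left out.

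The translocon, signal peptidase and glycosylation genes held 8 of these 15 rises, among 23 tested (34.8%, against 8.11% of all genes). Ssr2, another translocon-associated subunit, rose by 0.70 ± 0.10 (SE, limma adjusted p = 0.0171), and was at 9.14 to 9.48 in WT and at 9.92, 9.92 and 10.09 in TG. The signal peptidase subunit genes Spcs1 and Spcs3 rose by 0.61 and 0.43 (limma adjusted p = 0.0236 and 0.0175). Stt3b, a catalytic subunit of the enzyme that attaches sugar chains, rose by 0.30 (limma adjusted p = 0.0163), the smallest p of the list. The other 4 were Rpn1, Rpn2 and Ddost of the same enzyme and Ssr1.

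Rises made up 23.1% of the wider degradation genes, 15.8% of the export and retrieval genes and 7.14% of the folding and redox genes. The share of all genes tested was 8.11%. These groups are small, and no difference between them was tested. Among 13 degradation genes, Edem2 rose by 0.73 (limma adjusted p = 0.0201), Vcp, the ATPase that extracts proteins from the membrane, by 0.30 (0.0287) and Selenos by 0.31 (0.0385), while Ube2j1 was 0.26 higher (0.124). Among 19 export and retrieval genes, Sar1b, the GTPase of the COPII coat, rose by 0.30 (limma adjusted p = 0.0335), Kdelr2, a receptor that returns ER proteins from the Golgi, by 0.43 (0.0343) and the cargo receptor Tmed10 by 0.47 (0.0372). The cargo receptor Lman1 was 0.57 higher (limma adjusted p = 0.0643). Among 14 folding and redox genes Ppib rose by 0.24 (limma adjusted p = 0.0477), and Prdx4, Ero1a and Dnajc10 were 1.10, 0.29 and 0.26 higher (0.0561, 0.0571 and 0.0836).

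Among 11 other stress response factors 0 rose (8.11% of all genes) and 1 fell (2.56%) by limma. At an unadjusted p under 0.05, 1 was higher (20.0% of all genes) and 1 lower (11.0%). The median change was -0.03. Nfyb, a subunit of the factor NF-Y that binds CCAAT, fell by 0.31 on the log2 scale (limma adjusted p = 0.0447). Xbp1, the factor that IRE1 activates by splicing, was at 12.40, 12.59, 12.47 and 12.45 in WT and at 12.79, 12.96 and 13.59 in TG. The groups did not overlap, and the change was 0.64 ± 0.18 (SE, limma adjusted p = 0.0755). An array probe set does not separate spliced from unspliced Xbp1 unless its probes lie in the spliced stretch, which was not examined. Wfs1 and Mbtps1 changed by 0.30 and -0.12 (limma adjusted p = 0.202 and 0.225). Trib3, Chac1 and Atf3, targets of the PERK branch, were not above background on any array.

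**Figure D4:**
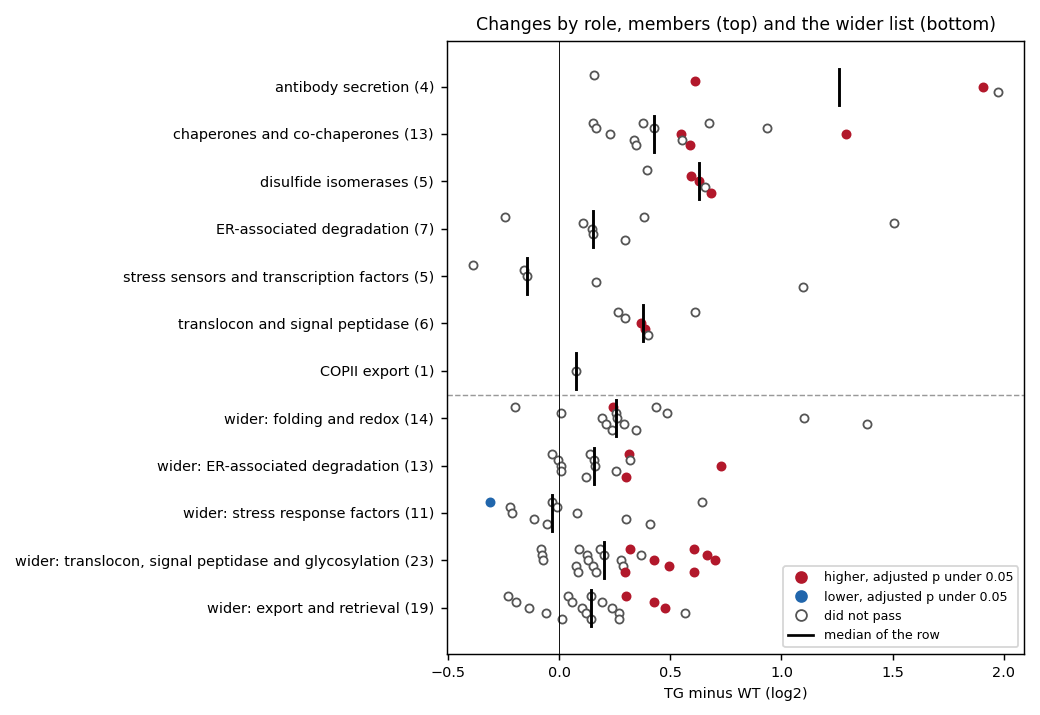
Fitted changes (TG minus WT, log2, x axis) of the 41 tested genes by role above the dashed line and of 80 wider ER genes below it, with the number tested in parentheses; red points rose, blue fell, open points did not pass, and black bars are medians. The stress factor rows have medians of -0.14 and -0.03, and the disulfide isomerases of 0.63.

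Markers of the labelled cell type and of others were measured on the same arrays. All 12 mature B cell markers with a probe set, among them Cd79a, Ms4a1 and Pax5, were above background in both groups; their summed linear signal was 168247 to 179193 in WT and 157358, 156350 and 117534 on TG replicates 1 to 3. Of the 12, 2 fell by limma, against 2.56% of all genes: Fcer2a, which encodes the IgE receptor CD23, by 0.82 on the log2 scale (adjusted p = 0.0451) and Cd72 by 0.30 (0.0313). All 12 changes were negative, with a median of -0.29. At an unadjusted p under 0.05, 7 were lower (11.0% of all genes). For 5 every TG array lay below every WT array (10.4% of all genes). Of plasma cell markers outside the 42 genes, 0 of 6 tested passed by limma, where 8.11% of all genes rose and 2.56% fell. At an unadjusted p under 0.05, Xbp1, which the wider list also holds, was higher (20.0% of all genes) and Irf4 lower (11.0%). Prdm1, the factor that sets the plasma cell programme, was at 6.13, 5.66, 5.06 and 5.76 in WT and at 6.22, 5.88 and 7.73 in TG, and Tnfrsf17 was above background on TG replicate 3 alone (5.40). The summed plasma cell signal was 31829 to 33678 in WT and 33110 to 34724 in TG. That sum is carried by Pou2af1, Tnfrsf13b, Xbp1 and Irf4, which are bright in the WT arrays too, so it says little about plasma cells.

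Neutrophil precursor markers were also higher in the TG samples. Of 12 markers with a probe set, 3 were above background on any WT array and 11 on any TG array, and their summed signal was 83.3 to 259 in WT and 15859 to 32315 in TG. All 7 tested rose, which the filter partly fixed in advance, since a gene could enter through the 3 TG arrays alone. Ctsg, Ms4a3, S100a8 and S100a9 had 0 WT arrays above background. Against the limit of 4 they were at least 105-, 14.6-, 52.0- and 15.3-fold higher. Mpo and Prtn3 were above background on 1 WT array each. Elane, at 4.17 to 5.46 in WT and 11.43 to 12.56 in TG, rose by 7.54 (limma adjusted p = 0.00101). Mpo, Elane, Prtn3, Ctsg and Ms4a3 were highest on TG replicate 3, and S100a8, S100a9, Ltf, Camp and Ngp on TG replicate 1. The sums of the erythroid markers (35.8 to 37.3 in WT, 228 to 1556 in TG), blood progenitor markers (149 to 197, and 861 to 3871) and cell cycle genes (4090 to 5761, and 8798 to 19941) did not overlap either. Natural killer cell markers summed to 131 to 196 in WT and 447 to 2361 in TG, dendritic cell markers to 109 to 168 and 427 to 3350, and platelet markers to 738 to 3740 and 10163 to 18156, again without overlap. The sums of monocyte and macrophage markers, 193 to 3107 and 2231 to 4416, overlapped. Lyz2 alone ran from 6.17 to 11.45 on the log2 scale in WT and weighs heavily in that sum. All 4 of these markers that were tested had a positive change, and 1 passed, Cd68 (2.63, limma adjusted p = 0.0259). Among the defining markers, Fcnb, Alas2, Epor, Ncr1, Klre1, Eomes, Cd14 and Gata2 were not above background on any array. T cell markers summed to 3556 on TG replicate 3, against 102 and 168 on TG replicates 1 and 2 and 82.9 to 88.6 in WT. The part of these cells in the changes of the ER genes was not tested.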

How the data were processed

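Splenic B cell RNA of 4 WT and 3 TG mice was hybridised to 1 array each. The authors deposited log2 values; the submitters' processing notes name GCRMA, with the version not given in the sources used here. That method corrects background, quantile normalizes and summarises probe sets. Between 35.5% and 37.0% of probe sets on each array lay at the lowest value, where differences cannot be seen. The count of arrays limits the precision. Of 45101 probe sets, 64 are controls, 34945 name 1 gene, 932 several and 9160 none; symbols were looked up by Entrez identifier in a RefSeq table (GRCm38.p6) for 34741, and 0 changed. The array annotation is an older platform table. Probe sets above 4 on at least 3 of 7 arrays were tested (20994, giving 9517 genes).

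Groups were compared with limma 3.58.1 (R 4.3.3), lmFit and eBayes with an intensity trend, two-sided, and p-values were adjusted by Benjamini and Hochberg's method across the 20994 probe sets. Each gene was given by its brightest probe set. Every one of the 42 genes is named; values on every array are given for those that passed and for the largest and smallest change of each role, and the wider list is named by its smallest p values, up to 4 per sub-list, with other genes named where a count is 5 or fewer. The genes, lists and tests were chosen with earlier results of these data known. The labels call each sample a replicate and the design text counts mice, so each array was taken as 1 mouse. The same replicate numbers recur in both groups, but deviations of same-numbered arrays correlated at -0.04, -0.14 and -0.29, so no pairing was used. Promoters of 35 of the 42 genes came from a RefSeq table. The procedure was also run on simulated data with changes added to some probe sets and independent noise. Such data have no shared array effects and no sex pattern, so they do not show how the procedure does on these arrays. Alternatives changed the filter, floor, normalization, variance model, array weights, probe set choice, threshold, block, Xist covariate and arrays used.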

Additional observations from a re-analysis of the deposited data

Results flagged for a closer look

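In 4 of 58 genes checked, 1 of the 4 WT arrays stood apart from the other 3, where chance flags about 5% of such groups. Mzb1 was at 13.01 on WT replicate 2 and at 13.22 on each of the other 3, which share 1 value. Sdf2l1 was at 8.75 on WT replicate 2 and at 8.17 to 8.24 on the others. Pdia4 was at 10.13 on WT replicate 3 and at 10.21 to 10.22 on the others. Sar1b, of the wider list, was at 10.39 on WT replicate 3 and at 10.55 to 10.56 on the others. No cause was tested.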

How the results depend on the processing

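All 41 changes kept their sign in the 20 alternatives that refit them, though changes of only the filter, floor or variance model could not alter a sign. Leaving out arrays could not alter it either for the 27 genes whose groups did not overlap. Of 820 gene values, 685 kept their side of the threshold, 95 calls were lost and 40 were gained. The share of all genes that rose, 8.11%, moved as well: to 9.17% with quantile normalization, 19.3% with array weights, 14.0% at an adjusted p under 0.10, 1.44% with the Xist covariate, 3.60% without both TG3 and WT4, 0.55% with no filter and 0.12% with WT replicates 1 and 2 alone. In that order the count of ER genes that rose, 10, became 16, 28 (2 lower), 24, 1, 3, 0 and 0. Leaving out 1 array gave 0 to 13 rises with 0.84% to 8.44% of all genes, medians of 0.29 to 0.45, and 0 to 13 rises and 0 falls in the wider list. Beside the same shares, the wider list's 15 rises became 1 with no filter, 34 with array weights, 0 with the Xist covariate or with WT replicates 1 and 2 alone, 7 without TG3 and WT4, and 27 at the looser threshold. Its 1 fall became 0 with no filter, above 4 on all 7 arrays, with the mean of a gene's probe sets, with the Xist covariate, with WT replicates 1 and 2 alone, and without TG3 and WT4. In the fit with a replicate block, although the numbers do not pair these samples, 0 ER genes and 0 wider genes passed in either direction, with 0.03% of all genes higher. The array weights did not reach their convergence tolerance. The smaller fits have fewer arrays or degrees of freedom; other causes were not tested. Scaling alternatives moved the median of all genes by under 0.1.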
